A study of Mus musculus with 48 samples.

Results

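The proteasome subunit genes are the 50 protein-coding genes whose symbol starts with Psma, Psmb, Psmc, Psmd, Psme, Psmf or Psmg followed by a digit, out of 48526 genes in the count table. They were taken by name and not by their values, though with earlier results of these data known. The libraries came from the cortex of 12 male wild-type C57BL/6JRj mice, 4 at each of 3 ages (3 weeks, 3w; 5 months, 5m; 18 months, 18m), and no treatment is given. The titles of the middle group say 6 months and the protocol says 5 months, which is used here; for the oldest group the protocol gives 18/19 months. Each mouse gave 4 RNA fractions. Total homogenate (TH) holds the RNA of all cortical cells, and synaptosomes (SYN) are pinched-off nerve endings collected on a sucrose gradient. Both were sequenced before a sucrose cushion (input_TH, input_SYN) and as the ribosome-containing pellet under it (SC_TH, SC_SYN), so that there were 12 groups of 4 libraries. The ratio of SC to input within a compartment is called TE (translational efficiency) below. It is a relative measure of RNA in the pellet and not of protein made.

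The 26S proteasome degrades proteins that carry ubiquitin chains. Its 20S core is a barrel of alpha subunits (Psma genes), which gate the entrance, and beta subunits (Psmb genes), which hold the protease sites. The 19S cap recognises the ubiquitin chain and unfolds the substrate, with a ring of ATPases (Psmc) and a set of other subunits (Psmd). Interferon exchanges the catalytic beta subunits for Psmb8, Psmb9 and Psmb10, which make the immunoproteasome, and the caps Psme1 and Psme2 (PA28), Psme3 (PA28-gamma) and Psme4 (PA200) can replace 19S. In neurons the proteasome takes part in the turnover of synaptic proteins. By role, the members were 7 alpha, 7 constitutive beta and 3 immunoproteasome beta subunits, 6 ATPases and 11 other subunits of 19S, 3 chaperones of the 19S base (Psmd5, Psmd9, Psmd10), 5 activators, the inhibitor Psmf1, 4 chaperones of 20S assembly (Psmg genes) and 3 others. The others were Psma8 of the testis, Psmb11 of the thymus and Psmc3ip, which takes part in meiotic recombination and is no proteasome subunit.

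A shared regulator of these genes is Nfe2l1, which binds antioxidant response elements. The 250 bases upstream of the annotated start were therefore searched on both strands for the element's core, TGACNNNGC. RefSeq promoter sequence (GRCm38.p6) was at hand for 42 members, and 5 of them (11.9%) held a match, against 11.5% of all 27025 genes with a promoter. Matches in Psmb5, which codes for the chymotrypsin-like site, in Psmb6, which codes for the caspase-like site, in the ATPase gene Psmc6 and in the base chaperone gene Psmd9 are shown as examples of the letters found, each 5′ to 3′ along the gene, with the core in capitals.
Psmb5 (chr14:54618024-54618052, minus strand): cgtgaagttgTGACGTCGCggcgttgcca
Psmb6 (chr11:70525338-70525356, plus strand): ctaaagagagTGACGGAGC
Psmc6 (chr14:45329587-45329615, plus strand, core on the opposite strand): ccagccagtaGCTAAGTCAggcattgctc
Psmd9 (chr5:123228149-123228177, plus strand): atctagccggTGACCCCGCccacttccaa
The share among the members was close to that among all genes. A gamma-activated sequence, TTCNNNGAA, was found for 2 of the 42 members, Psmb8 and Psmg1 (8.13% of all genes), and GAAANNGAA, from the response element of interferon-stimulated genes, for 3, Psmb3, Psmd4 and Psmd9 (8.18% of all genes). The motifs were searched separately, and their matches may overlap. The starts are those of RefSeq. For Psmd9 and Psmb8 the matches lay inside the gene as GENCODE annotates it (Psmd9 from 123169413 to 123250131), so they are not upstream of that annotated gene. A match is a description of the letters only.

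Libraries held 1780267 to 18590040 counts, with the lowest median in input_SYN. Reads on the members made up 0.165% to 0.180% of all counts in input_TH, 0.235% to 0.269% in SC_TH, 0.106% to 0.133% in input_SYN and 0.130% to 0.199% in SC_SYN. The ranges of input_TH and SC_TH did not overlap. Neither did those of input_TH and input_SYN, nor those of SC_TH and SC_SYN. Between SC_SYN and input_SYN they overlapped in a narrow band. Shares of total counts also depend on the composition of a library. The TMM scaling factors of edgeR were 1.19 to 1.28 in input_TH and 1.16 to 1.22 in SC_TH. In input_SYN they were 0.779 to 0.874 and in SC_SYN 0.785 to 0.886. The lower shares in SYN are therefore not read as a depletion of the members, and SYN is compared with TH after this scaling below. Reads were counted without regard to strand. Exons of 15 members overlap another gene, mostly on the other strand, and such reads cannot be told apart. Psmb5, Psmb6 and Psmb7 have named pseudogenes, which may share their reads. Of the marker genes of astrocytes, microglia, oligodendrocytes, neurons, endothelial cells and erythrocytes, all had counts in each of the 12 groups. All 10 microglial and 7 astrocytic markers were higher in SYN than in TH, in SC and in input, whereas all 6 endothelial markers, 5 erythrocyte markers and 5 nuclear RNAs were lower. The summed levels of the neuronal and of the oligodendrocyte markers were also higher in SYN at each age, in SC and in input.

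**Figure D1:**
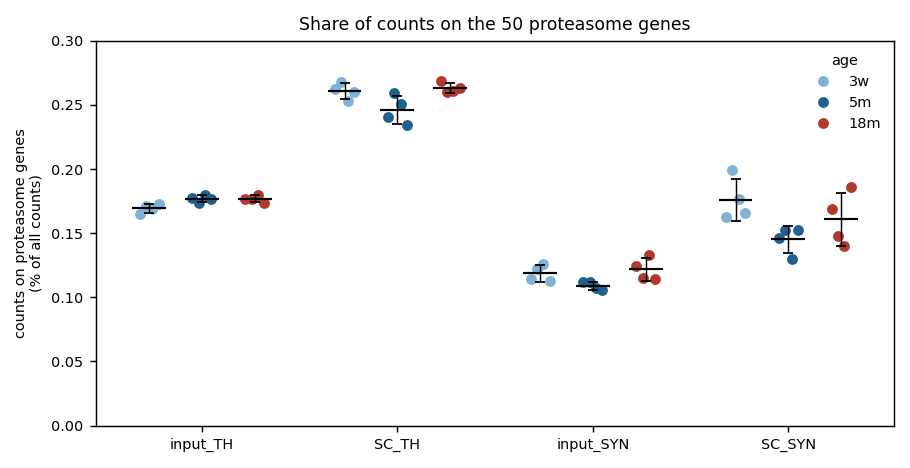
Share of all counts that fell on the 50 proteasome genes (y axis, percent) in each of the 48 libraries (points), by fraction (x axis) and age (colour). Lines and bars give the mean ± SD of 4 libraries, and the SC_TH libraries (0.235% to 0.269%) lie above the other fractions. The shares are of total counts and are not scaled for library composition, which differed between SYN and TH.

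Levels are given as CPM, counts relative to the library total after scaling by the TMM factors of edgeR, and levels of different genes are compared only per kilobase of exon (RPKM on the same scale). In input_TH the highest members by RPKM were Psmc5, an ATPase, with 32 ± 4.47 (SD, n = 12), Psmd2, a scaffold of the 19S base, with 30.9 ± 1.36, Psmb5 with 30.4 ± 4.4 and Psmc3 with 27.3 ± 3.36. Each of these 4 lay within 1 SD of its neighbour in the order. In SC_TH, Psmd2 led with 53.0 RPKM, followed by Psmc3 (46.9) and Psmc5 (46.1). The core subunits were not equally abundant. Among beta subunits, RPKM in input_TH ran from 5.81 for Psmb1 to 30.4 for Psmb5, and among ATPases from 5.82 for Psmc6 to 32 for Psmc5. The immunoproteasome genes Psmb8 and Psmb9 were at 0.50 and 0.27 RPKM in input_TH, near the bottom of the list, but Psmb10 was at 9.86. Psma8 was at 0.06 RPKM, with 4 to 24 reads summed over the 12 libraries of a fraction, and passed the filter on low counts in no comparison.

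The first comparison asked how much of each RNA lay in the ribosomal pellet relative to input. In TH, nearly the whole complex was higher in SC than in input. Of 49 members tested, 39 were higher and 4 were lower as the mean of the 3 ages, where a call means a value under 0.05 after Benjamini-Hochberg adjustment of the quasi-likelihood test of edgeR over all genes. Over all 18416 genes, 35.6% were called higher and 40.2% lower. The median log2 fold change of the members was 0.54, against -0.04 for all genes tested and 0.03 for the protein-coding ones. By role, 7 of 7 alpha subunits, 7 of 7 constitutive beta subunits, 6 of 6 ATPases and 10 of 11 other 19S subunits were higher, the exception being Psmd8 (-0.02, standard error 0.09).

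Psmb7, the trypsin-like site of the 20S core, had the largest increase among the members. Its level in input_TH was 31.7 CPM at the lowest, 37.7 at the median and 43.0 at the highest of 12 libraries, and in SC_TH 77.0, 121 and 166. No SC_TH library fell into the input_TH range, and the log2 fold change was 1.65 (standard error 0.08, adjusted p = 1.21e-16 from edgeR; higher in 12 of 12 mice). Psme1, a subunit of the PA28 cap, was at 7.70, 9.86 and 12.3 CPM in input_TH and at 20.8, 27.3 and 33.6 CPM in SC_TH. Its log2 fold change was 1.47 (standard error 0.08, adjusted p = 1.71e-15 from edgeR; 12 of 12 mice). Psma2, an alpha subunit, followed with 1.25 (standard error 0.06). Psme2, the partner of Psme1 in PA28, was higher by 0.55. Psmc3ip was not called (0.37, standard error 0.25). The catalytic subunits differed among themselves: Psmb5 was higher by 0.38 (standard error 0.06), Psmb6 by 0.76 (0.04) and Psmb7 by 1.65. Of the 19S subunits fixed for description, Psmd2 was higher by 0.79, the ubiquitin receptor Psmd4 by 0.84 and the deubiquitinase Psmd14 by 0.78.

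The 4 members lower in SC_TH were Psme4, Psmb9, Psmg3 and Psmb11. Psme4 codes for PA200, a single large protein that caps the core without ubiquitin. It was at 47.4, 65.6 and 72.0 CPM in input_TH and at 32.4, 41.1 and 54.2 CPM in SC_TH (lowest, median and highest of 12 libraries). The ranges overlapped, the level was lower in SC in 12 of 12 mice, and the log2 fold change was -0.57 (standard error 0.05, adjusted p = 1.55e-11 from edgeR). Psmb9 was called at -0.67 (standard error 0.29, adjusted p = 0.0343 from edgeR) from levels under 2 CPM, and the call was lost when mouse 188, 189, 190, 191, 195 or 196 was left out. Psmb11 had 191 reads over the 12 input_TH libraries, all of which held some, and 43 over the 12 SC_TH libraries. The same contrast set all 5 nuclear RNAs lower in SC_TH (median log2 fold change -1.23) and all 6 endothelial markers lower (median -0.79). Their part in the member values was not tested. In TH, the members' folds went with exonic length at Spearman's rho -0.32 over 49 genes, and at -0.19 over 14239 protein-coding genes.

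In SYN the direction was the same for most of the complex. Of 45 members tested, 33 were higher in SC_SYN than in input_SYN and 1 was lower, while 21.8% of all 14301 genes were called higher and 21.5% lower. The members' median was 0.48 against 0.01 for all genes and 0.04 for the protein-coding ones. All 7 constitutive beta subunits were higher (0.43 to 0.86), as were 6 of 7 alpha subunits, 10 of 11 other 19S subunits and 4 of 6 ATPases. Psmb6 was at 30.0, 35.2 and 39.8 CPM in input_SYN and at 49.4, 57.5 and 81.4 CPM in SC_SYN. The ranges did not overlap, and the log2 fold change was 0.75 (standard error 0.07, adjusted p = 1.96e-08 from edgeR; 12 of 12 mice). Psmb2 was higher by 0.86 (standard error 0.16), Psmb8 by 0.87 (0.22) and Psme1 by 0.83 (0.11). The ATPase Psmc5 was not called (-0.01, standard error 0.11), nor was Psma3 (0.10, 0.13). Psme3, a nuclear cap, was called lower by a small margin (-0.18, standard error 0.07, adjusted p = 0.0431 from edgeR), and with the mouse as a block it was not called.

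**Figure D2:**
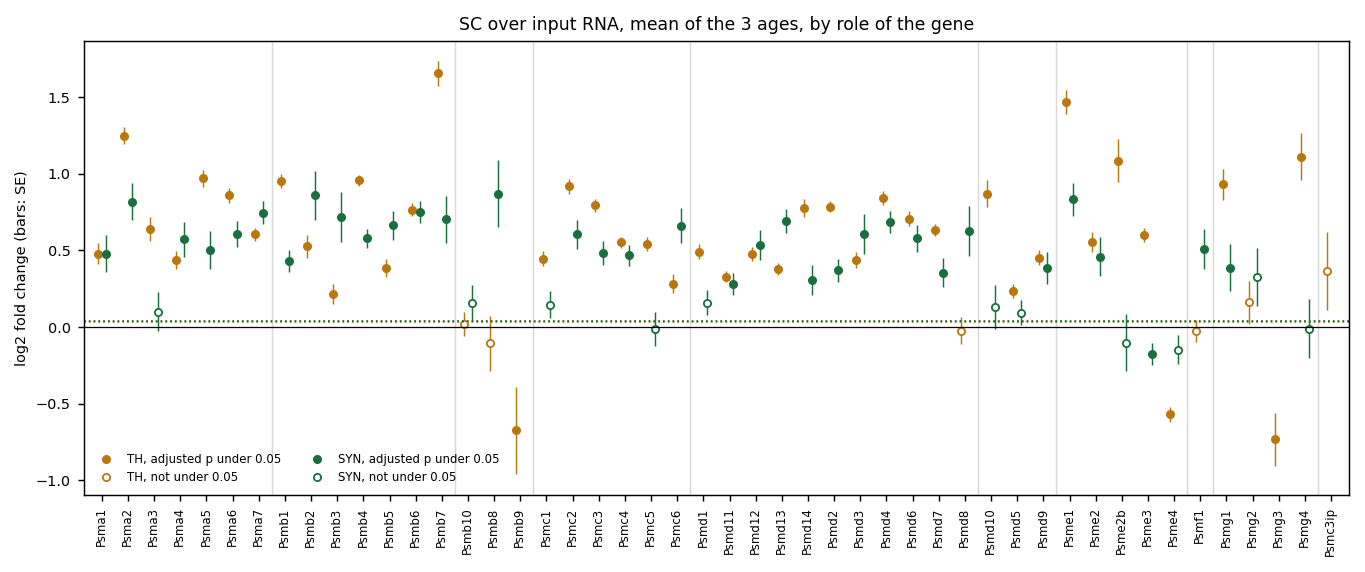
Log2 fold change of SC over input RNA (y axis; bars are standard errors) for each proteasome gene tested (x axis, grouped by role between grey lines), in TH (orange) and SYN (green), with filled points at an adjusted p under 0.05. Dotted lines are the medians of protein-coding genes (0.03 in TH, 0.04 in SYN), Psmb11 is left out, and most filled points lie above 0, with Psmb7 at 1.65 in TH the highest.

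Whether the 2 compartments differed in TE was tested directly, as SC over input in SYN minus the same in TH. Of 49 members, 11 had a higher and 20 a lower value in SYN, against 18.7% and 24.8% of 18112 genes. The difference was -0.93 for Psmb7 (standard error 0.18, adjusted p = 4.16e-05 from edgeR), -0.75 for Psme3 (0.08), -0.61 for Psme1 (0.14), -0.39 for Psmd2 (0.08) and -0.44 for Psmd14 (0.11). Values were higher in SYN for Psmb8 (1.00, standard error 0.29), Psmb9 (1.48, 0.46), Psmd8 (0.67, 0.19), Psmf1 (0.56, 0.15), Psme4 (0.46, 0.10) and Psmb5 (0.30, 0.11). Those of Psmb8 and Psmb9 rested on low counts, with 101 and 31 reads over the 12 input_SYN libraries. For Psmb9, 3 of these libraries held none. Psmb11 was also among the 11 higher, with 1 read over the 12 input_SYN libraries, 11 of which held none, and no fold is given. Psme2b, a copy of Psme2 whose reads may be shared with it, was lower by 1.17 (standard error 0.24). The constitutive beta subunits were split, with 2 higher and 3 lower, and the alpha subunits had 0 higher and 3 lower. With at least 10 counts required in every library, 18 members were called in place of 31. That filter also took members out of the test, among them Psmb8, Psmb9 and Psme2b, so part of the drop is genes no longer tested.

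The second comparison set SYN against TH. In the ribosomal pellets, 6 of 48 members were higher in SC_SYN than in SC_TH and 18 were lower, as 36.9% and 42.3% of all 16630 genes were. The members' median was -0.10, against -0.08 for all genes. No constitutive subunit of 20S or 19S was called higher, and 14 of 31 were called lower. All 7 constitutive beta subunits were left uncalled (-0.19 to 0.21), but 4 of 7 alpha subunits, 3 of 6 ATPases and 7 of 11 other 19S subunits were lower. These signs depend on the scaling: with total counts in place of TMM the median of all genes moved to -0.63 and 2 members were higher and 42 lower, and with trends on GC content and length removed 11 were higher and 14 lower. Values are therefore read against the median of all genes.

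The members that were higher were the immunoproteasome subunits Psmb8 and Psmb9, the PA28 genes Psme1, Psme2 and Psme2b, and the assembly chaperone Psmg4. Psmb8, in the major histocompatibility complex on chromosome 17 (34197721 to 34201454), was at 0.94, 1.62 and 2.05 CPM in SC_TH (lowest, median and highest of 12 libraries) and at 1.89, 4.35 and 9.47 CPM in SC_SYN. The ranges overlapped in a narrow band, and in 12 of 12 mice the SC_SYN library was the higher one. The log2 fold change was 1.58 (standard error 0.18, adjusted p = 1.89e-08 from edgeR), and 1.03 with total counts in place of TMM. Psmb9 lies next to it (34181987 to 34187764) and was at 0, 0.63 and 1.07 CPM in SC_TH and 0.42, 1.31 and 2.24 CPM in SC_SYN. Its fold change was 1.19 (standard error 0.25, adjusted p = 0.000133 from edgeR; 12 of 12 mice), and 0.64 with total counts, from 87 reads in all SC_TH libraries and 134 in all SC_SYN libraries. Psmb10, the third subunit, was not called (0.21, standard error 0.10). In input the same contrast gave 0.56 for Psmb8 (standard error 0.22, adjusted p = 0.0239 from edgeR) and -0.31 for Psmb9 (0.39), which was not called. The call of Psmb8 was lost with DESeq2 and with total counts. With total counts its value was -0.05, but the median of all genes also lay lower than with TMM, so this sign is not read alone.

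Psme1 was at 20.8, 27.3 and 33.6 CPM in SC_TH and at 29.3, 35.7 and 58.3 CPM in SC_SYN. The ranges overlapped, 9 of 12 mice were higher in SC_SYN, and the fold change was 0.51 (standard error 0.11, adjusted p = 0.000104 from edgeR). Psme2 was higher by 0.51 as well (standard error 0.11; 10 of 12 mice). With total counts the values were -0.04 for Psme1 and -0.05 for Psme2, and neither was called. The median of all genes moved down as well, as given above, so these signs are not read alone. Psme4 was the member with the lowest value. It was at 10.8, 17.4 and 24.5 CPM in SC_SYN and 32.4, 41.1 and 54.2 CPM in SC_TH, with no overlap, and edgeR gave -1.22 (standard error 0.07, adjusted p = 2.52e-14), and it was called in each of the 19 alternatives run for this contrast. The base chaperone Psmd5 was lower by 0.63 on the log2 scale (-0.63, standard error 0.07), Psma1 at -0.53 (0.09), Psmd14 at -0.44 (0.08) and Psmf1 at -0.32 (0.11). With GC and length trends removed, Psma1 (-0.05) and Psmd14 (0.13) were not called.

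Genes of the interferon response and antigen presentation were looked at in the same contrast. Higher in SC_SYN were B2m (1.52), H2-D1 (1.26), Tapbp (1.16), Tap2 (1.00), H2-K1 (0.99) and Tap1 (0.68), which present peptides cut by the proteasome, and lower was the transcription factor Irf1 (-0.53). An exon of Tap1 overlaps Psmb9 on the other strand, and 14.7% of the exonic bases of Psmb8 overlap another gene. The summed level of the 10 microglial markers was 276 to 416 CPM in SC_TH and 639 to 1399 CPM in SC_SYN, with a median fold change of 1.47 and none at 0. That of the 7 astrocytic markers was 1513 to 1716 and 4260 to 5954 CPM. The neuronal markers were higher in SC_SYN too, with sums of 7051 to 8765 CPM in SC_TH and 12260 to 16544 CPM in SC_SYN. Oligodendrocyte markers at 3w had sums of 3850 to 4720 CPM in SC_TH and 8622 to 10522 CPM in SC_SYN. In bulk RNA, more cells of a type and more RNA per cell cannot be told apart, and the part of these cells in the values of Psmb8 and Psmb9 was not tested.

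**Figure D3:**
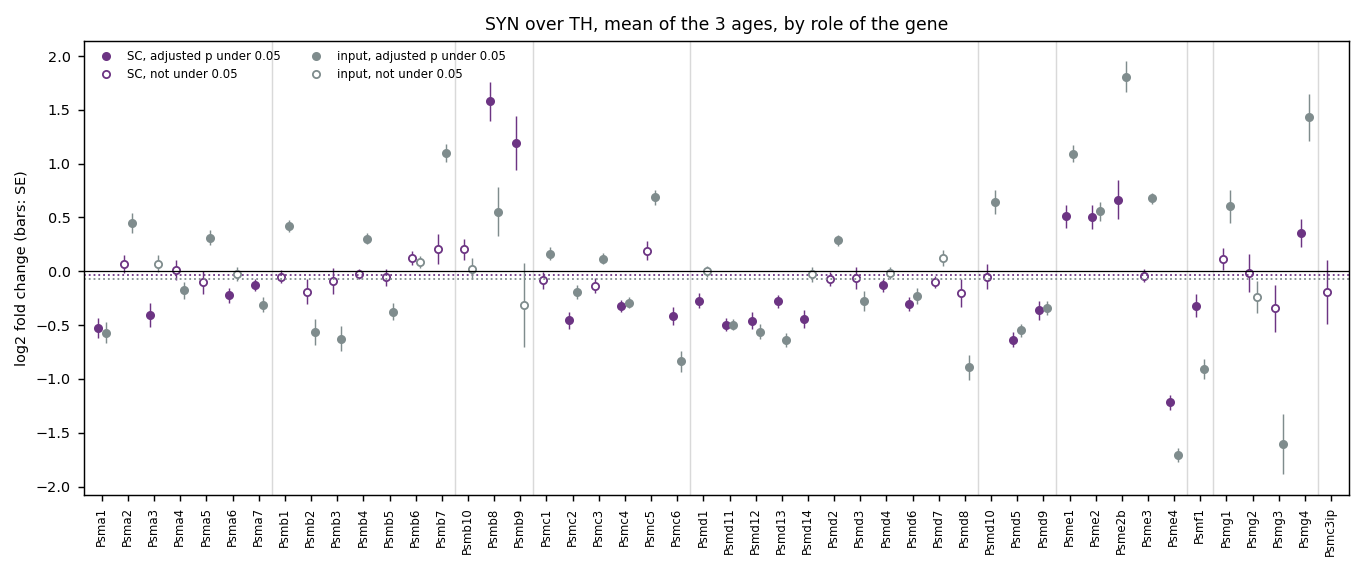
Log2 fold change of SYN over TH (y axis; bars are standard errors) for each proteasome gene tested (x axis, grouped by role between grey lines), in SC (purple) and input (grey), with filled points at an adjusted p under 0.05. Dotted lines are the medians of protein-coding genes, Psmb11 is left out, and Psmb8 (1.58) and Psmb9 (1.19) stand highest and Psme4 (-1.22) lowest in SC.

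In input RNA the spread among members was wider. Of 48 members tested, 17 were higher in input_SYN and 21 lower, against 36.7% and 47.4% of 17860 genes, with a median of -0.03 against -0.17. With total counts 4 were higher and 37 lower, the median of all genes then being -0.77, and with GC and length trends removed 27 were higher and 15 lower. Psmb7 was at 31.7, 37.7 and 43.0 CPM in input_TH and at 52.8, 77.3 and 118 CPM in input_SYN, without overlap, and its fold change was 1.10 (standard error 0.09, adjusted p = 1.47e-12 from edgeR). Psme1 was higher by 1.09 (standard error 0.08), Psme3 by 0.68 (0.05) and Psmc5 by 0.69 (0.07), each in 12 of 12 mice. With total counts the value of Psme1 was 0.49, and Psme3 (0.08) and Psmc5 (0.09) were not called. Psme2b was higher by 1.81 (0.14). Lower were Psme4 (-1.71, standard error 0.07), Psmf1 (-0.91, 0.09), Psmd8 (-0.89, 0.12) and Psmb5 (-0.38, 0.08). Psmb11 had 1 read in the 12 input_SYN libraries and 191 in the 12 input_TH libraries, and no fold is given. Over the 48 members, the folds went with exonic length at Spearman's rho -0.42 in input and -0.47 in SC, and over protein-coding genes at -0.12 and -0.13.

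**Figure D4:**
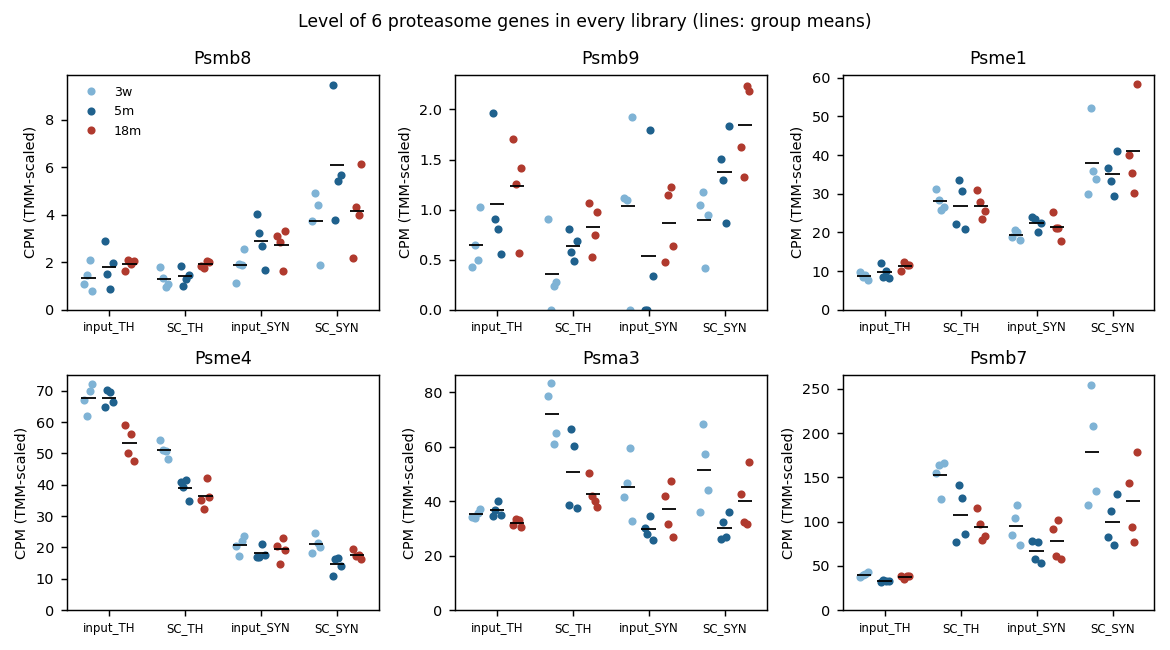
Level (y axis, TMM-scaled CPM) of 6 proteasome genes in each of the 48 libraries (points), by fraction (x axis) and age (colour), with lines at group means of 4 libraries. Psmb8 is highest in SC_SYN (up to 9.47 CPM), Psme4 in input_TH (up to 72.0 CPM), and Psma3 and Psmb7 scatter between mice in SC_TH at 5m.

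The third comparison followed the genes through age within each fraction, to ask whether proteasome transcripts change in the whole cortex or at the synapse. In ribosome-associated RNA of synaptosomes, 2 of 46 members fell from 3w to 5m, while 8.05% of all 14240 genes were called. Psma3, an alpha subunit on chromosome 12, was at 36.1, 68.1, 57.3 and 44.0 CPM at 3w and at 26, 32.1, 26.7 and 36.1 CPM at 5m. The groups overlapped only at their edges, and the log2 fold change was -0.80 (standard error 0.21, adjusted p = 0.0314 from edgeR). Psme4 was at 18.1, 24.5, 21.3 and 20.1 CPM at 3w and 10.8, 16.4, 16.8 and 14.2 CPM at 5m, without overlap, and edgeR gave -0.57 (standard error 0.15, adjusted p = 0.0363). The median of the members was -0.16 against -0.01 for all genes, and 11 members had an unadjusted p under 0.05. Counts at an unadjusted p, here and below, cannot be set against the shares of genes called, which are after adjustment. Without mouse 188, 189, 191 or 193 no member was called, and without mouse 187 there were 4. Over this step 8 of 8 oligodendrocyte markers fell in SC_SYN (median -1.41) and 7 of 10 microglial markers rose (median 0.76), and their part in the member values was not tested. Library totals in SC_SYN were 5415274 to 6132944 at 3w and 8328535 to 14557582 at 5m, so depth and age cannot be told apart here. At 18m the members' share of counts was 0.169% and 0.186% in mice 195 and 198 (totals 6268207 and 5341263). It was 0.148% and 0.140% in mice 196 and 197 (totals 18590040 and 15306804). From 5m to 18m no member was called in SC_SYN by edgeR, against 0.014% of all genes, and DESeq2 called 0. At an unadjusted p under 0.05 there were 7 members in edgeR.

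In SC_TH, 2 of 47 members rose and 4 fell from 3w to 5m, against 17.9% of 16427 genes called. Psmd3, a scaffold of the 19S lid, was at 62.4, 52.9, 75.3 and 70.5 CPM at 3w and at 96.7, 75.4, 82.0 and 101 CPM at 5m. The groups were separated by a narrow gap, and the log2 fold change was 0.45 (standard error 0.11, adjusted p = 0.0107 from edgeR). Psmd5 rose by 0.43 (standard error 0.10, adjusted p = 0.00844 from edgeR). Psme4 fell from 54.2, 51.2, 50.7 and 48.2 CPM to 40.7, 39.2, 41.5 and 34.8 CPM, without overlap, by 0.38 on the log2 scale (standard error 0.09; edgeR, adjusted p = 0.0105). Psma3 fell as well (-0.51, standard error 0.16, adjusted p = 0.0364 from edgeR), with 78.4, 83.4, 61.0 and 65.0 CPM at 3w and 38.7, 66.6, 60.4 and 37.5 CPM at 5m. Psmb7 (-0.50, standard error 0.16) and Psma5 (-0.34, 0.11) were the others. The 5m values of Psma3, Psmb7 and Psmc5 were lowest, and those of Psmd3 highest, in the same 2 mice, 191 and 194. Without mouse 187, 188, 191 or 194, 3 members were called in place of 6, and without mouse 192, 11. Over the same step, 8 of 8 oligodendrocyte markers (median -1.0), 4 of 5 erythrocyte markers (median -0.69), 3 of 5 nuclear RNAs and 3 of 6 endothelial markers fell in SC_TH and 5 of 10 microglial markers rose, and their part in the member values was not tested. With GC and length trends removed, Psma3 and Psmb7 were not called. From 5m to 18m 0 of 47 members were called by edgeR or DESeq2, against 2.17% of all genes in edgeR. At an unadjusted p under 0.05 edgeR gave 15 members, a count on another threshold than that share. The members' median was 0.12, which is not set against that of all genes and is not read as a joint rise. Without mouse 191, 1 member was called. The summed level of the 5 nuclear RNAs in SC_TH was 7234 to 10751 CPM at 5m and 5154 to 6161 CPM at 18m, without overlap. Those of the cell-type marker lists overlapped, and the part of the nuclear RNAs in the member values was not tested.

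In input_SYN no member was called by edgeR or DESeq2 at either step. After adjustment, 3.22% of 12975 genes were called from 3w to 5m and 0.139% from 5m to 18m. At an unadjusted p under 0.05 there were 7 of 44 members at the first step and 3 at the second. These counts are on another threshold than the shares and cannot be set against them. This was the fraction with the lowest counts. In input_TH, Psmc1 (0.21, standard error 0.06) and Psmc5 (0.29, 0.06), both ATPases, rose and Psmb7 fell (-0.29, 0.06) from 3w to 5m, with 11.8% of 18078 genes called. In a fit of all 48 libraries none of the 3 was called. Psmc1 kept its call in 5 of 14 alternatives, being lost without a filter, with GC and length trends removed (0.19) and without mouse 187, 188, 189, 190, 193 or 194, whereas Psmc5 and Psmb7 kept theirs in 13 of 14. All 8 oligodendrocyte markers (median -1.37) and all 5 erythrocyte markers (median -1.05) fell over this step in input_TH, and their part was not tested. Psmc5 was at 34.8, 38.9, 38.2 and 37.9 CPM at 3w and at 44.3, 46.4, 45.1 and 47.2 CPM at 5m, so that the groups lay apart.

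The most calls with age came in input_TH from 5m to 18m. Of 49 members, 7 rose and 2 fell, against 15.5% of all genes. The share of members called was close to that of all genes, so the count is not read as a result about the members. All 3 constitutive catalytic subunits rose: Psmb5 by 0.37 (standard error 0.09, adjusted p = 0.0106 from edgeR), Psmb6 by 0.25 (0.06, adjusted p = 0.017) and Psmb7 by 0.19 (0.06, adjusted p = 0.0306). Psmb5 was at 23.6, 25.1, 23.9 and 24.3 CPM at 5m and at 27.4, 36.4, 31.5 and 30.0 CPM at 18m. Each 18m library lay above each 5m library. The ATPases Psmc3 (0.28) and Psmc4 (0.20) and the 19S subunits Psmd3 (0.22) and Psmd4 (0.19) also rose. Psme4 fell from 64.8, 70.2, 69.7 and 66.3 CPM to 59.1, 50.1, 56.3 and 47.4 CPM, without overlap (-0.35, standard error 0.07, adjusted p = 0.00514 from edgeR), and Psma3 fell by 0.19 (-0.19, standard error 0.06). Over the 49 members these folds went with the GC content of the exons at Spearman's rho 0.74, and over the 14100 protein-coding genes tested at 0.54. With GC and length trends removed 2 members were called, Psmb7 (0.39) and Psme4 (-0.23). Of 14 alternatives, the call was kept in 5 for Psmb7 (lost with DESeq2, total counts and no filter among others), in 5 for Psmd4 and in 3 for Psma3, against 12 for Psmb5 and 13 for Psme4. For Psmb6 it was kept in 11, being lost without mouse 196, with GC and length trends removed and in the fit of all 48 libraries. Over this step, 4 of 8 oligodendrocyte and 3 of 6 neuronal markers rose in input_TH and 3 of 6 endothelial markers fell. The summed level of the 5 nuclear RNAs was 18088 to 18456 CPM at 5m and 16187 to 17476 CPM at 18m. Mitochondrially encoded genes held 2.31% to 3.11% of counts at 5m and 1.31% to 2.24% at 18m, lowest in mouse 196. Neither pair of ranges overlapped, and the part of these shifts and of the markers in the member values was not tested. The calls also varied with the mice, with 4 without mouse 196, 5 without mouse 193 or 198 and 13 without mouse 195, and in a fit of all 48 libraries 0 members were called.

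**Figure D5:**
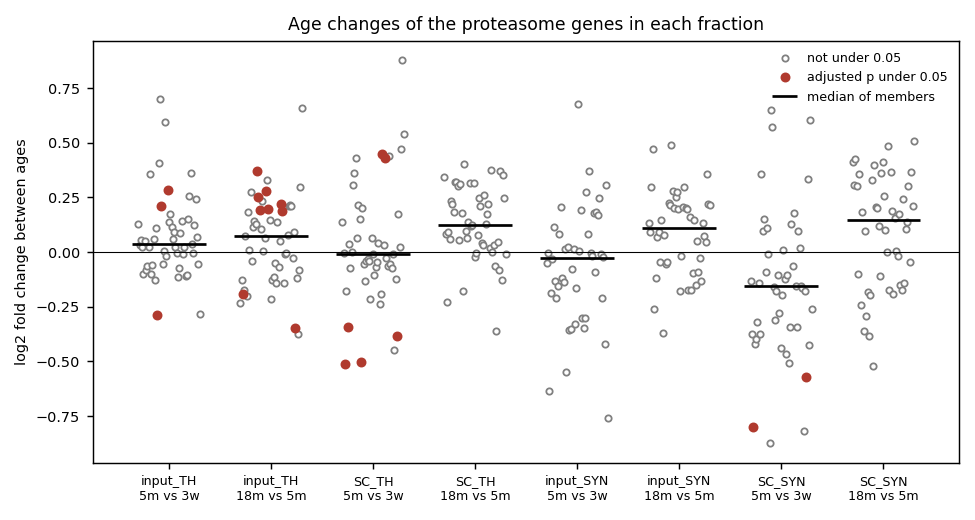
Log2 fold change between ages (y axis) of each proteasome gene tested (points), for the 2 age steps in each of the 4 fractions (x axis), with red points at an adjusted p under 0.05 and lines at the members' medians. The most red points, 9 of 49, are in input_TH from 5m to 18m, and 4 of the 8 comparisons hold none.

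Whether age changes differed between SYN and TH was tested as an interaction. In SC, 0 of 48 members were called for either step, against 0.0301% and 0.0% of all genes. At an unadjusted p under 0.05 there were 3 and 9 members. Such counts, in all of this paragraph, are on another threshold than the shares of genes and cannot be set against them. DESeq2 called 0 and 2 members. In input, 0 of 48 were called, against 0.0224% and 2.42% of genes, and 4 and 9 members had an unadjusted p under 0.05. DESeq2 called 0 and 1, and with the mouse as a block edgeR called 0 and 1. A change of TE with age was tested in the same way. In SYN, edgeR and DESeq2 called 0 of 45 members at both steps, with 2 at an unadjusted p under 0.05 each time, and 0.0% of genes were called at the first step and 0.0% at the second. In TH from 3w to 5m, 2 of 49 were called, against 2.33% of genes, and 11 members had an unadjusted p under 0.05. TE rose for Psmd3 (0.50, standard error 0.13, adjusted p = 0.0339 from edgeR) and fell for Psmc5 (-0.52, 0.12, adjusted p = 0.0197). With the mouse as a block 4 members were called, without mouse 187, 188, 191 or 194 none was, without mouse 189 there were 4 and without mouse 192 there were 5. In TH from 5m to 18m edgeR called 0, against 1.78% of genes, and 7 members had an unadjusted p under 0.05. DESeq2 called 4 there, the fit with the mouse as a block called 1, and without mouse 191 or 195 edgeR called 6 or 3.

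Genes that work with the proteasome were looked at as a list of 30, among them the ubiquitin genes Ubb and Rps27a, the shuttle Rad23b and the ubiquilins, the segregase Vcp with its cofactors and the regulators Nfe2l1 and Akirin2. In SC_TH over input_TH, 23 of 30 were higher and 5 lower (35.6% and 40.2% of all genes), with a median of 0.49, and in SC_SYN over input_SYN 15 were higher and 4 lower (21.8% and 21.5% of all genes), with a median of 0.25. Pomp, which helps assemble the core, was higher by 0.52 and 0.55, Vcp by 1.00 and 0.53, and Adrm1, a ubiquitin receptor of 19S, by 0.73 and 0.30. Rps27a, which codes for ubiquitin fused to a ribosomal protein, was lower in both (-0.23 and -0.28), unlike Ubb (1.28 and 0.76). Between SC_SYN and SC_TH, 4 of the 30 were higher and 18 lower (36.9% and 42.3% of all genes). The higher ones were Nfe2l1 (1.23), Rps27a (1.02), Ubqln4 (0.52) and Nfe2l2 (0.43). From 3w to 5m in SC_TH, 8 of 30 rose and 0 fell, with 17.9% of all genes called, among them Nfe2l2 (0.79), Ubqln2 (0.72) and Uchl1 (0.52), and in SC_SYN 1 rose, Ubqln4 (0.60), with 8.05% of all genes called. In input_TH from 5m to 18m 4 rose and 3 fell, with 15.5% of all genes called, Adrm1 at 0.38 and Ube3a, a ubiquitin ligase, at -0.39.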

How the data were processed

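RNA was sequenced from 48 rRNA-depleted libraries of mouse cortex. According to the submitters' processing notes and the methods, the authors made the reads with bcl2fastq 2.20.0.422, aligned them with TopHat2 2.1 to GRCm38 and counted them per gene with featureCounts without strand. The deposited values are these counts, not normalized. Use of the UMIs to remove duplicates is not given in the sources used here, and the labels do not tell sequencing runs apart. Symbols came from GENCODE M21, which held 48144 of 48526 identifiers, and the other identifiers carried 0.0596% of counts. Members, lists and tests were chosen with earlier results of these data known.

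edgeR 4.0.16 in R 4.3.3 (TMM, filterByExpr, glmQLFit, glmQLFTest) gave the tests, adjusted by Benjamini-Hochberg over all genes, with a call at 0.05. Age was fitted in each fraction alone, pairs of fractions over 24 libraries, and the TE difference over all 48. CPM were scaled by TMM factors, where division by total counts alone had been planned, so that levels and fold changes share a scale. The medians of protein-coding genes were added after seeing the data. Named genes were the catalytic, immunoproteasome and activator genes, Psmd2, Psmd4, Psmd14, Psmf1, Psma8, Psmb11 and Psmc3ip, and the 3 largest called changes in each direction averaging 50 counts or more in the group where they were higher, or all where 5 or fewer were called. Others named in the text, such as Psma5, Psmc4, Psmd8 and Psmg3, were picked with their values in view. Replicates are mice, and the same mouse number marks the 4 libraries of an animal. Deviations of these libraries from their group means correlated with medians of -0.08 to 0.25 for the 6 pairs of fractions. Across 72 pairs of libraries of a group, the chi-square per degree of freedom was 1.89 to 29.5, so none was a duplicate. Alternatives were DESeq2 1.42.0, total counts, no filter, at least 10 counts in every library, all 48 libraries in one fit, loess trends (span 0.5) on GC content and length, the mouse as a block, and each mouse left out. The code was checked on simulated counts. A few genes of the accompanying lists are not reported here.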

Additional observations from a re-analysis of the deposited data

Results flagged for a closer look

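In groups of 4 libraries, 5 of 132 groups over 11 measures held a library far from the other 3, by Dixon's criterion, which chance passes in about 1 of 20 groups. Psmb6 was at 66.8 CPM in SC_TH of 18m mouse 198 (59.9 to 60.7 in the others) and at 41.9 CPM in input_TH of 18m mouse 196 (36.3 to 36.7). Psmf1 was at 23.1 CPM in SC_TH of 3w mouse 189 (15.1 to 16.0), at 8.18 CPM in input_SYN of 18m mouse 197 (12.2 to 12.6) and at 18.62 CPM in input_TH of 18m mouse 196 (21.3 to 21.7). The TE of 2 members differed between 5m and 3w in TH, and that of 31 members between SYN and TH, each by the test of the difference itself.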

How the results depend on the processing

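Of 327 counts of called members under an alternative, 275 lay within 1.5 times the value reported. In 1415 settings of a named gene, 1283 kept direction and call, and 8 changed sign. The cause of the changes was not tested.

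In a fit of all 48 libraries, 8 members were called in SC_SYN from 3w to 5m (2 reported), 2 in SC_SYN from 5m to 18m, 3 in SC_TH from 3w to 5m, 0 in input_TH at both steps, 1 for the age change of SC_SYN minus SC_TH from 5m to 18m and 0 for the TE change in TH from 3w to 5m. DESeq2 called 4 in SC_SYN from 3w to 5m, 2 and 1 for the age changes of SYN minus TH in SC and in input from 5m to 18m, and 4 for the TE change in TH from 5m to 18m. Total counts called 44 between SC_SYN and SC_TH, 1 for the age change in input from 5m to 18m and 2 for the TE change in TH at that step. Without a filter, 2 were called in input_SYN from 3w to 5m, and 5 and 2 for the TE changes in TH. With at least 10 counts in every library, 1 was called for the age change in input, 2 for the TE change in TH from 5m to 18m and 18 for the TE difference of SYN and TH. That filter left fewer members to test. With GC and length trends removed, 1 was called in input_SYN from 3w to 5m, 2 in input_TH from 5m to 18m, and 1 and 1 for the TE changes in TH.

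The same mouse number marks the same animal. With the mouse as a block, 4 and 1 members were called for the TE changes in TH and 1 for the age change in input from 5m to 18m, and the calls of Psmd4 between SC_SYN and SC_TH and of Psme3 between SC_SYN and input_SYN were lost. No other count moved by over 1.5 times.

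With 1 mouse left out, the counts ran from 0 to 4 and from 0 to 0 in SC_SYN at the 2 age steps, from 3 to 11 and from 0 to 1 in SC_TH, from 0 to 0 at both steps in input_SYN, from 2 to 3 and from 4 to 13 in input_TH, from 0 to 5 and from 0 to 6 for the TE changes in TH, from 22 to 27 between SC_SYN and SC_TH, and from 26 to 32 for the TE difference. The median of the TE change in SYN from 5m to 18m was 0.00, and ran from -0.10 (without mouse 198) to 0.11 (without mouse 197). The median TE difference of SYN and TH was -0.08, and 0.032 without a filter, 0.035 with 10 counts in every library, 0.034 as a mean over genes and 0.0080 without mouse 196.

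With GC and length trends removed, the median of the age change of SC_SYN minus SC_TH from 5m to 18m was -0.10, that of input_SYN over input_TH 0.20, Psma3 in input_TH from 5m to 18m 0.00075 and Psmd14 between SC_SYN and SC_TH 0.13. With total counts, Psme1 (-0.043) and Psme2 (-0.049) between SC_SYN and SC_TH, and Psme2 (-0.048), Psmd2 (-0.31) and Psmb8 (-0.047) between input_SYN and input_TH changed sign. In both contrasts the median of all genes also lay lower with total counts than with TMM. Psmd2 between input_SYN and input_TH was at -0.0088 with 10 counts in every library. Low counts limited Psmb9, Psmb11 and Psma8 in each fraction, and input_SYN, the shallowest, for all members.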
